A study of Mus musculus with 6 samples.

Results

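The alpha-actinins and filamins described here were 6 human genes, ACTN1, ACTN2, ACTN3, ACTN4, FLNA and FLNC, out of 58870 genes in the deposited tables. Together they held 69 of the 208621 isoforms listed. The genes were chosen by their symbols, and the group was selected on the difference between Dox and No Dox samples in these same libraries. Their expected counts, their TPM (the transcript level per length, scaled to the same total in every library) and the share of each isoform in its gene are therefore given as a description of that contrast, with no test.

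Alpha-actinins are antiparallel dimers that bind actin filaments at both ends and crosslink them. ACTN2 and ACTN3 are known as the muscle forms, which anchor thin filaments at the Z-disc of the sarcomere, and ACTN1 and ACTN4 as the forms of other cells, found in stress fibers, focal adhesions and cell junctions. Filamins are long, flexible dimers that hold actin filaments at wide angles and also bind integrins and many signaling proteins. FLNA is the common form outside muscle and FLNC the form of skeletal and cardiac muscle. Several of these genes are known to be alternatively spliced. ACTN1, for example, has mutually exclusive exons that give a calcium-sensitive non-muscle form and a smooth muscle form. Rbfox1 is an RNA-binding protein of neurons, heart and skeletal muscle. It binds mostly in introns, near to or far from regulated exons, and changes their inclusion.

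The cells were 77-5 cells, a single clone of T-REx-293, a HEK293-derived human line that makes the tetracycline repressor. All 6 samples carried a doxycycline-inducible Rbfox1 and a minigene built from a BAC of mouse Ntrk2. The No Dox group held 3 samples without doxycycline, and the Dox group held 3 samples given doxycycline for 48 h at 0.5 mg/ml, the dose in the labels. Elsewhere the study gives the dose in micrograms per ml, so its unit is not settled. No sample used here received doxycycline without the inducible Rbfox1, so an effect of the drug and an effect of Rbfox1 cannot be told apart.

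The libraries held between 59822964 and 65774104 expected counts, and reads assigned to RBFOX1 lay between 6.92 and 8.42 TPM in No Dox and between 186 and 190 TPM in Dox. The labels name mouse as the organism, but all gene identifiers in the tables are human. All 7 markers of the HEK293-derived line reached 1 TPM in at least 1 sample, NEFM only in Dox (0.45 to 0.61 TPM in No Dox). Their summed level was 1176 to 1188 TPM in No Dox and 1047 to 1081 TPM in Dox. VIM made up most of it, with means of 692 and 666 TPM. Of 13 markers of striated muscle identity, 2 reached 1 TPM (NKX2-5 and MYH3) and 9 were under 0.1 TPM in every sample, with summed levels of 23.4 to 24.4 TPM in No Dox and 22.4 to 23.6 TPM in Dox. NKX2-5 made up most of these sums, at 19.6 TPM in No Dox and 20.2 TPM in Dox. MYH3 went from 3.59 to 2.16 TPM without overlap. The labels do not say that the 3 samples of a group were separate cultures, so p-values measure only the spread between these samples, which may be technical. In bulk RNA, fewer cells with a transcript and less of it in each cell cannot be told apart.

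At gene level, ACTN2 was higher in Dox, FLNA was lower, and the alpha-actinin total stayed within an overlapping range. ACTN2, the Z-disc form, stood at 5.05, 5.60 and 4.82 TPM in the 3 No Dox samples and at 20.5, 19.8 and 21.9 TPM in the 3 Dox samples. The means were 5.16 ± 0.40 TPM and 20.7 ± 1.0 TPM (SD, n = 3), a 4.02-fold difference in which every Dox sample lay above every No Dox sample. In counts, normalized by TMM and fitted with edgeR, the ACTN2 log2 fold change was 2.20 ± 0.05 (SE).

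FLNA, which crosslinks cortical actin and links it to integrins, stood at 329, 333 and 316 TPM in No Dox and at 229, 214 and 206 TPM in Dox. The means were 326 ± 9.0 TPM and 216 ± 11.4 TPM (SD, n = 3), and the groups did not overlap. The log2 fold change of its counts was -0.71 ± 0.04 (SE). FLNC, the muscle filamin, was measured near the bottom of the range, at 0.53, 0.46 and 0.50 TPM in No Dox and at 0.81, 0.77 and 0.61 TPM in Dox. All 3 Dox samples lay above the No Dox samples, on 592 expected counts in all in No Dox and 857 in Dox, with a log2 fold change of 0.50 ± 0.11 (SE).

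ACTN4, the most abundant alpha-actinin of these cells, stood at 338, 345 and 343 TPM in No Dox and at 326, 322 and 301 TPM in Dox. The means were 342 ± 3.7 TPM and 316 ± 13.4 TPM (SD, n = 3), and the lowest Dox sample, replicate 3, lay farthest from the No Dox range. ACTN1, its closest relative outside muscle, stood at 36.9, 37.4 and 35.7 TPM in No Dox and at 38.2, 38.6 and 33.9 TPM in Dox, so the groups overlapped. ACTN3, the form of fast muscle fibers, had 3 to 6 expected counts per library in No Dox and 1 to 8 in Dox, at or under 0.07 TPM in all 6 samples. It did not pass the filter on low counts and has no fitted value.

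**Figure D1:**
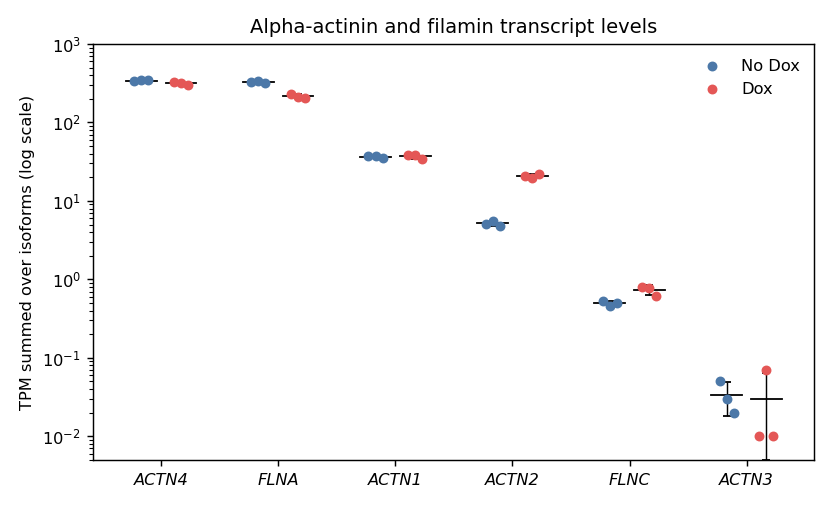
Level of each gene in TPM, summed over its isoforms, on a log axis. Points are the 3 No Dox and 3 Dox samples, horizontal lines are means and error bars are SD, with the lower bar of ACTN3 in Dox ending at the axis. ACTN2 moved from 5.16 to 20.7 TPM and FLNA from 326 to 216 TPM, while the ACTN1 samples overlapped.

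On counts, ACTN2 and FLNC were higher and ACTN1, ACTN4 and FLNA lower in Dox, and each kept that direction with library size alone as the scaling. On TPM, ACTN1 was not lower, with overlapping groups and means of 36.7 in No Dox and 36.9 in Dox.

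Within the alpha-actinins the summed level overlapped between the groups while the shares of ACTN2 and ACTN4 did not. The 4 alpha-actinins summed to 380, 388 and 384 TPM in No Dox and to 385, 380 and 357 TPM in Dox, so the groups overlapped. ACTN2 took 1.33%, 1.44% and 1.26% of this sum in No Dox and 5.34%, 5.21% and 6.13% in Dox. The share of ACTN4 was 89.1% ± 0.29 in No Dox and 84.6% ± 0.19 in Dox (SD, n = 3), with no overlap. ACTN1 held 9.55% ± 0.22 and 9.86% ± 0.33, with overlapping samples. The muscle form was thus a small part of the pool in both groups. FLNC took 0.152% ± 0.012 of the FLNA and FLNC sum in No Dox and 0.336% ± 0.035 in Dox.

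Within each group the order of levels was the same, ACTN4, FLNA, ACTN1, ACTN2, FLNC and ACTN3 from highest to lowest. Levels were compared between neighbors on the TPM scale, which takes account of transcript length. None of the 10 neighboring pairs had overlapping ranges. No p is given for them, since an exact test of 3 values against 3 cannot go below 0.1 and the values of both genes come from the same libraries. The distances between neighbors differed between the groups. ACTN4 lay 1.05-fold above FLNA in No Dox and 1.46-fold above it in Dox, and ACTN1 lay 7.11-fold above ACTN2 in No Dox and 1.78-fold above it in Dox.

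The transcripts that made up each gene also differed between the groups, most in ACTN1, ACTN2 and ACTN4 and, on few counts, in FLNC. Each isoform is described by its isoform percentage, the share of its gene's TPM, which RSEM estimates by dividing reads among overlapping isoforms. Among the members at 5 TPM or more in both groups, 22 isoforms reached 5% of their gene in either group. Of these, 6 differed by at least 10 percentage points with no overlap between the groups, in 3 of the 4 genes. Among genes at that level in the whole series, 5.17% of 35430 isoforms and 11.4% of 10237 genes met the same criteria, but the members were chosen on this contrast and nothing is read from the difference. As shares of expected counts, 5 isoforms in 2 genes did so, without ACTN4-209.

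ACTN1 was mostly 1 isoform in No Dox and a mixture in Dox. ACTN1-201, a transcript of 3779 bases, made up 94.1%, 81.4% and 91.8% of ACTN1 in No Dox and 52.4%, 53.8% and 55.6% in Dox. ACTN1-204, of 3043 bases, was at 0%, 0.97% and 0% in No Dox and at 26.5%, 24.5% and 15.3% in Dox. The ACTN1-201 share was thus lower in every Dox sample and the ACTN1-204 share higher. In expected counts ACTN1-204 had 0, 44.7 and 0 in No Dox and 1305, 1130 and 678 in Dox. Its spread was wide on both sides, and the limma-voom log2 fold change was 8.78 ± 5.26 (SE).

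The remaining ACTN1 isoforms with at least 5% of the gene were short or scarce. ACTN1-214, of 828 bases, stood at 0%, 0.70% and 0% in No Dox and at 6.19%, 5.57% and 8.32% in Dox. ACTN1-205, of 2813 bases, stood at 1.21%, 2.75% and 2.69% in No Dox and at 2.83%, 4.73% and 8.18% in Dox, where the lowest Dox sample was next to the highest No Dox sample. The other 17 ACTN1 isoforms had means of at most 4.14% each.

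In ACTN2, 1 isoform was nearly absent from Dox samples and a pair of others nearly absent from No Dox samples. ACTN2-204, of 2796 bases, held 24.5%, 22.6% and 23.1% of ACTN2 in No Dox and 0.74%, 0% and 0.39% in Dox. ACTN2-212, of 2716 bases, was listed at 0 in all 3 No Dox samples and held 19.85%, 23.98% and 21.22% in Dox. ACTN2-210, of 3078 bases, held 1.31%, 0% and 0% in No Dox and 11.5%, 12.1% and 14.3% in Dox. None of these shares overlapped between the groups.

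The counts behind those shares differed in the same directions. ACTN2-204 had 147, 142 and 127 expected counts in No Dox and 17.9, 0 and 10.2 in Dox, although the gene as a whole had more counts in Dox. ACTN2-212 had 465, 502 and 537 expected counts in Dox. Against a floor of 3 counts over the No Dox group, its level relative to library size was at least 505-fold higher in Dox, a bound that covers counting error only and takes RSEM's division of the reads as given.

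The other isoforms of ACTN2 carried the higher level of the gene as well. Without ACTN2-210 and ACTN2-212, the ACTN2 isoforms summed to 4.98, 5.60 and 4.82 TPM in No Dox and to 14.1, 12.7 and 14.1 TPM in Dox, still 2.65-fold higher on the means. ACTN2-201, the longest of the named ACTN2 isoforms at 4872 bases, stood at 1.65, 1.43 and 1.61 TPM in No Dox and at 7.68, 7.35 and 7.15 TPM in Dox. Its share of the gene overlapped between the groups, at 30.6% ± 4.3 and 35.7% ± 2.6 (SD, n = 3). ACTN2-202, ACTN2-205 and ACTN2-208 also overlapped in share, with means from 9.75% to 13.02% in No Dox and from 6.79% to 11.5% in Dox. A further isoform outside the naming rule, ACTN2-203, was picked after its values were seen. It held 5.06% to 11.6% in No Dox and 0% in Dox, on no more than 4 counts per library.

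ACTN4 was spread over several isoforms in both groups, and 6 of its 11 reached 5% of the gene. ACTN4-201, the longest of them at 4990 bases and the largest share in each sample, held 32.6%, 33.4% and 32.3% in No Dox and 23.99%, 24.49% and 24.06% in Dox. ACTN4-209, of only 546 bases, held 3.26%, 2.53% and 2.38% in No Dox and 17.70%, 17.02% and 16.43% in Dox. ACTN4-210, of 1729 bases, held 12.1%, 12.7% and 12.1% in No Dox and 3.28%, 1.60% and 3% in Dox. The groups did not overlap in any of these isoforms, and the largest SD was 0.90 percentage points, for ACTN4-210 in Dox.

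In TPM, ACTN4-209 stood at 9.307 ± 1.504 in No Dox and at 53.97 ± 4.19 in Dox, a 5.80-fold difference. ACTN4-210 stood at 42.2 ± 1.6 TPM in No Dox and at 8.29 ± 2.85 TPM in Dox, 5.10-fold lower. The other named ACTN4 isoforms moved less. ACTN4-207, of 586 bases, held 16.7% ± 2.0 in No Dox and 22.5% ± 1.7 in Dox, ACTN4-208, of 877 bases, held 17.04% ± 0.62 and 12.8% ± 0.44, and ACTN4-202, of 2102 bases, held 15.7% ± 0.88 and 13.8% ± 0.63. Measured as a share of the gene's expected counts instead of TPM, ACTN4-202 went the other way, from 13.1% ± 0.49 to 14.8% ± 0.59.

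Short transcripts weigh more in a share of TPM than in a share of reads. ACTN4-209 held 0.437% ± 0.077 of the ACTN4 expected counts in No Dox and 3.47% ± 0.099 in Dox, against 2.72% and 17.1% of the TPM. ACTN4-201 held 68.8% ± 0.19 of the counts in No Dox and 64.8% ± 1.1 in Dox, so that most ACTN4 reads came from this transcript in both groups. Several other isoforms also differed less as a share of counts than as a share of TPM, with -27.5 against -35.1 percentage points for ACTN1-201, 1.41 against 6.46 for ACTN1-214, -3.98 against -8.57 for ACTN4-201 and 2.10 against 5.78 for ACTN4-207. The same held for ACTN4-210, with -6.09 against -9.71, and ACTN2-212, with 18.6 against 21.7. ACTN2-204, ACTN2-208 and FLNA-215 differed more as a share of counts, with -23.9 against -23.0, -3.95 against -3.55 and 3.40 against 2.51. ACTN2-201 went from a difference of 5.13 points to 0.021, and ACTN4-208 and FLNA-217 overlapped between the groups as shares of counts. For ACTN1-204 and ACTN2-210 the scales lay close, with 21.8 and 21.1 percentage points for the former and 12.19 and 11.98 for the latter.

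**Figure D2:**
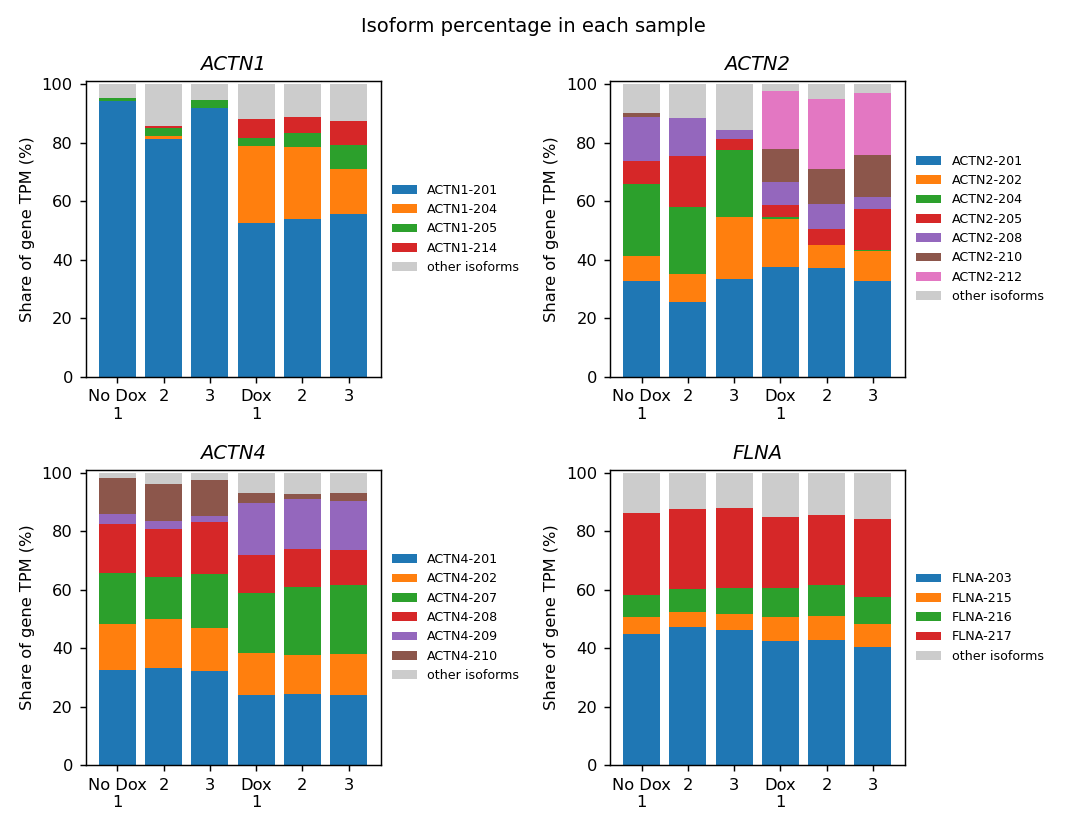
Share of each gene's TPM, in percent, taken by its isoforms in each of the 3 No Dox and 3 Dox samples, for ACTN1, ACTN2, ACTN4 and FLNA. Colored segments are isoforms with a mean of at least 5% in either group and gray is the sum of all others. ACTN1-204, ACTN2-210, ACTN2-212 and ACTN4-209 widen in every Dox sample, ACTN2-204 and ACTN4-210 shrink, and the FLNA segments change less.

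The isoform shares of FLNA lay closer together between the groups, while its level was lower in Dox. FLNA-203, of 8240 bases, held 45.0%, 47.3% and 46.4% in No Dox and 42.5%, 43.0% and 40.6% in Dox. FLNA-217, of 914 bases, held 28.04%, 27.52% and 27.41% in No Dox and 24.2%, 23.7% and 26.6% in Dox. No FLNA isoform at or above 5% differed by more than 4.20 percentage points between the group means, although none of these shares of TPM overlapped between the groups. FLNA-215 and FLNA-216 rounded out the named isoforms, with 5.48% and 7.86% in No Dox and 7.99% and 9.97% in Dox. In TPM, FLNA-203 stood at 151 ± 6.0 in No Dox and at 90.9 ± 6.8 in Dox, while FLNA-215 overlapped at 17.9 ± 0.83 and 17.3 ± 1.7. Of the FLNA expected counts, FLNA-203 held 83.0% ± 0.73 in No Dox and 79.5% ± 0.54 in Dox. The short FLNA-217 held 4.53% ± 0.14 and 4.27% ± 0.38 of them.

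FLNC reads were divided between a pair of long transcripts of nearly equal length. FLNC-202, of 9042 bases, held 0%, 0% and 48.7% of FLNC in No Dox and 83.9%, 60.8% and 87.0% in Dox. FLNC-201, of 9188 bases, took the rest; it fell outside the naming rule for its low TPM and is named after its values were seen. The groups did not overlap in these shares, but No Dox replicate 3 lay far from the other No Dox samples. Without it the FLNC-202 difference was 77.2 percentage points in place of 61.0. The shares come from RSEM's division of 178 to 326 FLNC counts per library. How many of these reads tell the pair apart was not tested. The limma-voom log2 fold change of FLNC-202 was 6.24 ± 2.04 (SE).

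Because the isoforms differed in length, counts and TPM did not always tell the same story about a gene. The mean effective length of the ACTN4 transcripts, weighted by their TPM, was 2289 ± 48 bases in No Dox and 1793 ± 12 in Dox. For ACTN1 it was 3451 ± 68 and 2967 ± 33 bases (SD, n = 3). Shorter transcripts give fewer reads per molecule. In both genes the log2 ratio of Dox to No Dox was lower on counts than on TPM. The ACTN4 log2 fold change was -0.50 ± 0.03 (SE) on counts and -0.11 on log2(TPM + 0.1).

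Whether ACTN1 differed at all depended on the scale. Its log2 fold change was -0.25 ± 0.04 (SE) on counts and 0.0079 on log2(TPM + 0.1), where the samples overlapped. ACTN2 went the opposite way in length, from 2526 ± 166 to 2954 ± 157 bases, with 2.20 on counts and 1.99 on log2(TPM + 0.1). FLNA differed less, with -0.71 and -0.59, and FLNC little, with 0.50 and 0.48.

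**Figure D3:**
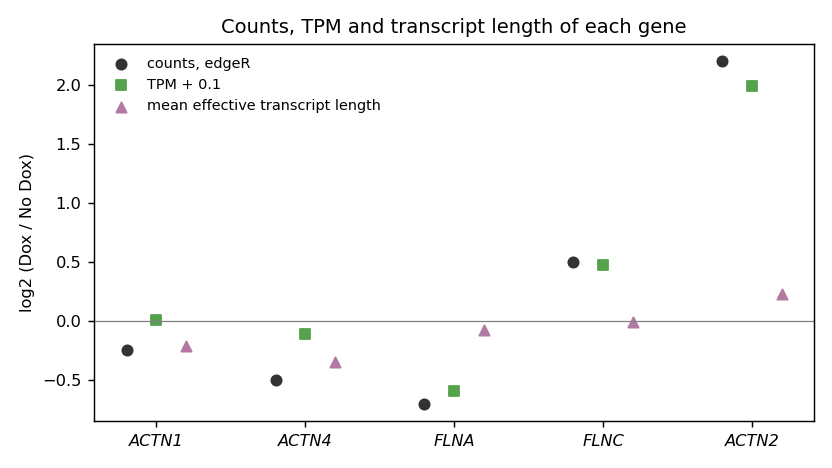
The log2 ratio of Dox to No Dox for 5 genes, from edgeR on counts (circles), from mean TPM + 0.1 (squares) and for the TPM-weighted mean effective transcript length (triangles). ACTN1 and ACTN4 lie at -0.25 and -0.50 on counts but at 0.0079 and -0.11 on TPM, and their transcript lengths at -0.22 and -0.35.

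The pattern most like that of ACTN2 over the 6 samples belonged to MAP2, a microtubule-associated protein of neurons. Likeness was the root mean square difference of log2 CPM after each gene was centered on its own mean. It was taken over 15179 genes with a mean of at least 1 TPM in either group, with FLNC kept as a member below that level. MAP2 lay at 0.058, with 1.55 TPM in No Dox and 6.13 TPM in Dox. AL513318.2 and AC093425.1 followed, at 0.130 and 0.141. These are descriptions over samples that fall into 2 groups.

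Genes around the alpha-actinins and filamins were examined in 4 lists, beside a median log2 fold change of 0.0045 over all genes. Of 46 proteins that bind an alpha-actinin or filamin, 37 were tested, and 17 rose, 11 fell and 9 did not pass, with a median of 0.08. SYNPO, the podocyte and spine protein that binds alpha-actinin, was at 0.523 ± 0.035 TPM in No Dox and rose to 1.46 ± 0.08 TPM in Dox (1.28 on the log2 scale of counts, adjusted p = 1.73e-08 in edgeR). FILIP1 and FILIP1L, named for filamin A interaction, rose by log2 fold changes of 0.88 and 0.86 (edgeR adjusted p = 2.59e-06 and 1.34e-05). ROCK1, a kinase of actomyosin contraction, was at 14.9 ± 0.42 TPM in No Dox and fell to 8.85 ± 0.23 TPM in Dox (-0.95 on the log2 scale of counts, adjusted p = 1.18e-12 in edgeR).

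PDLIM5, a Z-disc and stress fiber adaptor that binds alpha-actinin, went opposite ways on the scales. Its counts fell with a log2 fold change of -0.65 (edgeR adjusted p = 1.08e-10), while its TPM went from 40.2 ± 3.0 to 56.2 ± 1.1 and its weighted effective length from 3911 to 1815 bases.

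Of 19 other proteins with the calponin homology domains that form the actin-binding region of both families, 18 were tested, and 9 rose, 4 fell and 5 did not pass, with a median of 0.14. DMD, which encodes dystrophin, was at 7 ± 0.28 TPM in No Dox and rose to 10.1 ± 0.30 TPM in Dox (0.48 on the log2 scale of counts, adjusted p = 1.09e-07 in edgeR). PLS3, an actin-bundling plastin, was at 247 ± 3.5 TPM in No Dox and fell to 192 ± 8.8 TPM in Dox (-0.39 on the log2 scale, adjusted p = 1.12e-08 in edgeR). PARVB, a parvin of focal adhesions, fell on counts by a log2 fold change of -0.30, and SPTB and SYNE1, a spectrin and a nuclear envelope protein, rose by 0.36 and 0.30, although the TPM of SPTB and SYNE1 overlapped between the groups.

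Of 33 other actin crosslinking or side-binding proteins, 29 were tested, and 6 rose, 10 fell and 13 did not pass, with a median of -0.05. CALD1, which encodes caldesmon, was at 47.1 ± 0.67 TPM in No Dox and fell to 24 ± 0.55 TPM in Dox (-0.92 on the log2 scale of counts, adjusted p = 9.97e-13 in edgeR). FSCN1, the bundling protein of filopodia, and LIMA1 and CTTN, which stabilize filaments, fell with log2 fold changes of -0.60, -0.52 and -0.50.

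Most genes of the Z-disc and sarcomere were not measured at a testable level. Of 50, 27 were under 0.1 TPM in every sample and 17 were tested, and 5 rose, 2 fell and 10 did not pass, with a median of 0.11. With library size alone 5 rose and 1 fell. ANKRD1, a titin-associated stress response protein, was at 0.617 ± 0.176 TPM in No Dox and rose to 1.44 ± 0.20 TPM in Dox (1.19 on the log2 scale of counts, adjusted p = 5.79e-05 in edgeR). KLHL41, a muscle kelch protein, and TCAP, the titin cap, rose by 0.78 and 0.58 on the log2 scale, and the TCAP call was lost with DESeq2, at 0.57. MYH3, the embryonic myosin heavy chain, fell by a log2 fold change of -0.51. TNNT1, the slow troponin T, fell by a log2 fold change of -0.18 (edgeR adjusted p = 0.0214), a call lost with DESeq2, with library size alone and without No Dox replicate 1 or 3 or Dox replicate 2, at -0.19 to -0.14. The summed level of the list was 49.4 to 51.5 TPM in No Dox and 47.1 to 50.6 TPM in Dox. TNNT1, TNNI3 and NEBL made up most of it. Their means were 19.8, 9.39 and 7.83 TPM in No Dox and 18.9, 9.13 and 6.48 TPM in Dox. The sum therefore says little about the list genes of low TPM.

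The shares of list genes called at gene level were 75.7% of the binding partners, 72.2% of the calponin homology relatives, 55.2% of the other crosslinkers and 41.2% of the sarcomere genes. Over all 18264 genes tested, 51.4% were called, 24.9% higher in Dox and 26.5% lower. With library size alone as the scaling, 5682 genes were called higher and 3753 lower, against 4543 and 4841 with TMM. At isoform level 18.0%, 18.1%, 20% and 5.88% of the tested isoforms of these lists were called, against 12.7% of 72278 isoforms over all genes. Isoforms called in both directions within 1 gene were seen for 5 binding partners (PDLIM5, PDLIM7, SVIL, TRAF2 and VCL), 3 calponin homology relatives (DST, MACF1 and SPTBN1) and 6 other crosslinkers (AFAP1, CALD1, CTTN, DBN1, DBNL and LIMA1). These were 14.7%, 18.8% and 28.6% of the list genes with at least 2 isoforms tested, against 7.48% of 12307 such genes over all, and none of 7 sarcomere genes had them. The lists were chosen with earlier results of these data known and were not tested against the other genes. Nothing is read from these differences in share.

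**Figure D4:**
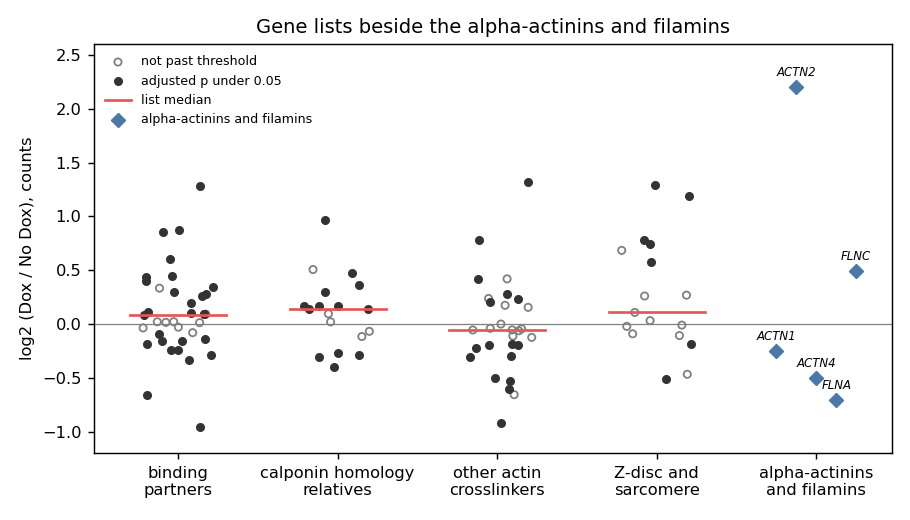
The log2 ratio of Dox to No Dox on counts for the tested genes of 4 lists and for the 5 members with a fitted value (diamonds). Filled circles are genes past an edgeR adjusted p of 0.05, open circles are genes not past it, and red lines are list medians, which lie between -0.05 and 0.14. ACTN2, at 2.20, lies above every gene of the lists, and FLNA, at -0.71, lies below all of them but ROCK1 and CALD1.

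Markers of other cell types did not all stay level between the groups, and their part in the values above was not tested. Of 9 neuron markers, 4 reached 1 TPM, with sums of 32.3 to 35.1 TPM in No Dox and 31.4 to 33.1 TPM in Dox, and DCX and ELAVL4 stayed at or under 0.08 TPM. Within that sum TUBB3 went from 15.1 ± 0.78 to 10.99 ± 0.38 TPM, SNAP25 from 2.99 ± 0.39 to 4.59 ± 0.09 and SYT1 from 1.82 ± 0.07 to 2.30 ± 0.06, each without overlap. Of 9 markers of stroma, endothelium and blood, COL1A1 and LUM reached 1 TPM, with sums of 8.67 to 8.97 TPM in No Dox and 11.56 to 12.01 TPM in Dox. Among the muscle markers, MYOD1 lay between 0.16 and 0.37 TPM over the 6 samples, MYOG at or under 0.05 TPM, and MYF5, MYF6 and NPPA were at 0 in all 6. Of these marker genes, ACTA1, CKM, MYH3, MYH6 and MYH7 are also in the sarcomere list and VIM is also among the binding partners. The ACTN4 pseudogenes ACTN4P1 and ACTN4P2 and the antisense genes of ACTN1 and FLNC were at or under 0.11 TPM in all samples. Reads that ACTN1 and ACTN4 share through their similar sequence are divided by RSEM's model, and the part of that division in the isoform values was not tested.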

How the data were processed

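Stranded mRNA libraries of 3 No Dox and 3 Dox samples of 1 clone were sequenced in pairs. Per the labels and methods, the authors trimmed reads with cutadapt, aligned them to GRCh38 with STAR and quantified isoforms with RSEM. Library complexity was checked with Picard. For these libraries the sources used here name no version of cutadapt, STAR or RSEM, no annotation release and no strand setting. The deposited tables give expected counts, TPM and the isoform percentage (the percent of a gene's TPM in 1 isoform) per isoform. FPKM was not used. No human annotation or sequence was used here, so coordinates and sequences are not printed.

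Counts and TPM were summed by gene. Expected counts were rounded. Genes were tested with edgeR 4.0.16 (TMM, filterByExpr, quasi-likelihood) and isoforms with limma 3.58.1 (voom), in R 4.3.3, two-sided, with Benjamini-Hochberg adjustment over all features tested and a threshold of 0.05. The scripts were tested on simulated data. Replicate numbers did not enter the fits. Alternatives were DESeq2 1.42.0, other scalings, no filter, a replicate block, leaving out each sample, TPM in place of counts and shares of counts in place of isoform percentages. The pseudocount on TPM was 0.1, and CPM were log2 values with a prior count of 2.

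The members and lists were chosen with earlier results of these data known. Named were all 6 members, their isoforms with a mean of at least 5% of the gene and 0.5 TPM in either group, the 5 called genes of at least 1 TPM with the largest change in each list, and the 3 genes most like a member with an absolute log2 fold change of at least 1, except 1 gene that is not reported here. The bound from the floor of 3 counts covers counting error only.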

Additional observations from a re-analysis of the deposited data

How the results depend on the processing

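All 55 alternative counts of called genes, overall and in the 4 lists, stayed within 1.5 times the count reported, with 9384 genes called in the reported fit, 7404 with DESeq2 and 8323 to 9278 with 1 sample left out. The isoform count was less stable: 9169 isoforms were called with limma-voom, 13913 with DESeq2 and 5502 to 6429 with 1 sample left out. Leaving out any sample but Dox replicate 3 lowered it by more than 1.5 times, with fewer samples in the fit, and the cause of the DESeq2 difference was not tested. Of 60 alternative log2 fold changes of the 5 members, 59 kept the direction; ACTN1 was 0.0079 on log2(TPM + 0.1) against -0.25 on counts, where shorter isoforms enter the TPM. Of 154 alternative differences in the share of the 22 named isoforms, 140 moved by less than the spread between samples, 13 moved by more and 1 turned, that of ACTN4-202, with a difference of 1.60 percentage points as a share of counts against -1.88 as a share of TPM. ACTN2-202 and ACTN2-205, whose groups overlapped, also changed sign when some single samples were left out, with ranges of -3.95 to 2.43 and -4.997 to 1.98. In all 40 alternatives the order of the member levels was kept, but these alternatives could not have changed it. Leaving out a sample cannot reorder genes whose ranges do not overlap. Counts per effective length, with the length weighted by TPM, restate the TPM.

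With the replicate block, 9805 genes and 7296 isoforms were called. The replicate numbers share no stated culture or day, and the deviations of same-numbered samples correlated at 0.041, 0.028 and 0.057, with 3 of 3 samples correlating best with their own number, a hint from the data only. FLNC, with 178 to 326 counts per library, and ACTN3, with 1 to 8, limit what can be said of their isoforms.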
